A study of Mus musculus with 10 samples.

Results

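Denervated and contralateral tibialis anterior (TA) muscle were compared 7 days after denervation, on 2 spotted arrays of opposite labelling. The genes described carried a single symbol in the platform annotation and had a log2 ratio of the same sign on both day 7 arrays. They numbered 59 of 89 genes with a single symbol, and the whole array gave 2300 features, most of them unnamed probes. The muscles came from CD1 mice aged 3 months, and each array hybridised denervated and contralateral RNA together. The time 0 arrays, again 2 of opposite labelling, hybridised the 2 muscles at the time labelled 0 and are the background here. Days 1, 3 and 14, with 2 arrays each, entered the fit for its estimate of the spread. The labels leave unstated how the nerve was interrupted, how many animals an array covered and whether both arrays of a day shared RNA extracts. All p-values therefore rest on how far arrays differ from each other, possibly for technical reasons only, and if the pair is a technical swap, day 7 is 1 sample with no test.

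TA is a fast-twitch hindlimb muscle. After its nerve is lost, a muscle fibre loses activity and shrinks. Its membrane changes outside the former junction, and calcium handling and contractile genes change. MEF2 and the myogenic helix-loop-helix factors, which bind E-box motifs, are known to couple muscle activity to transcription. The whole muscle was extracted, so fewer cells of a type and less RNA per cell cannot be told apart. None of the 41 markers listed for fibres, leukocytes, nerve, fibroblasts, endothelium, satellite cells and blood was among the named genes, so the labelled tissue could not be checked with them.

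Every value is a log2 ratio of denervated over contralateral muscle, so values above 0 stand for more RNA on the denervated side. A gene's value on an array is the median of the 4 spots of its probe, and probes of a gene were averaged. On both day 7 arrays, 38 named genes were above 0 and 21 were below 0. These were 42.7% and 23.6% of the 89 named genes, against 39.1% above and 32.5% below 0 over all features. The difference between these shares was not tested. The median over the 89 named genes was 0.12, against 0.09 over all features. Among the 38 higher genes the mean of the arrays ran from 0.06 to 3.72 with a median of 0.38. Among the 21 lower genes it ran from -1.32 to -0.07 with a median of -0.37. At the edge of the selection, Psmd1 was kept with 0.24 and 0.0021, and Rabep1 was not, with -0.99 and 0.0035. The other 30 genes had opposite signs.

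**Figure D1:**
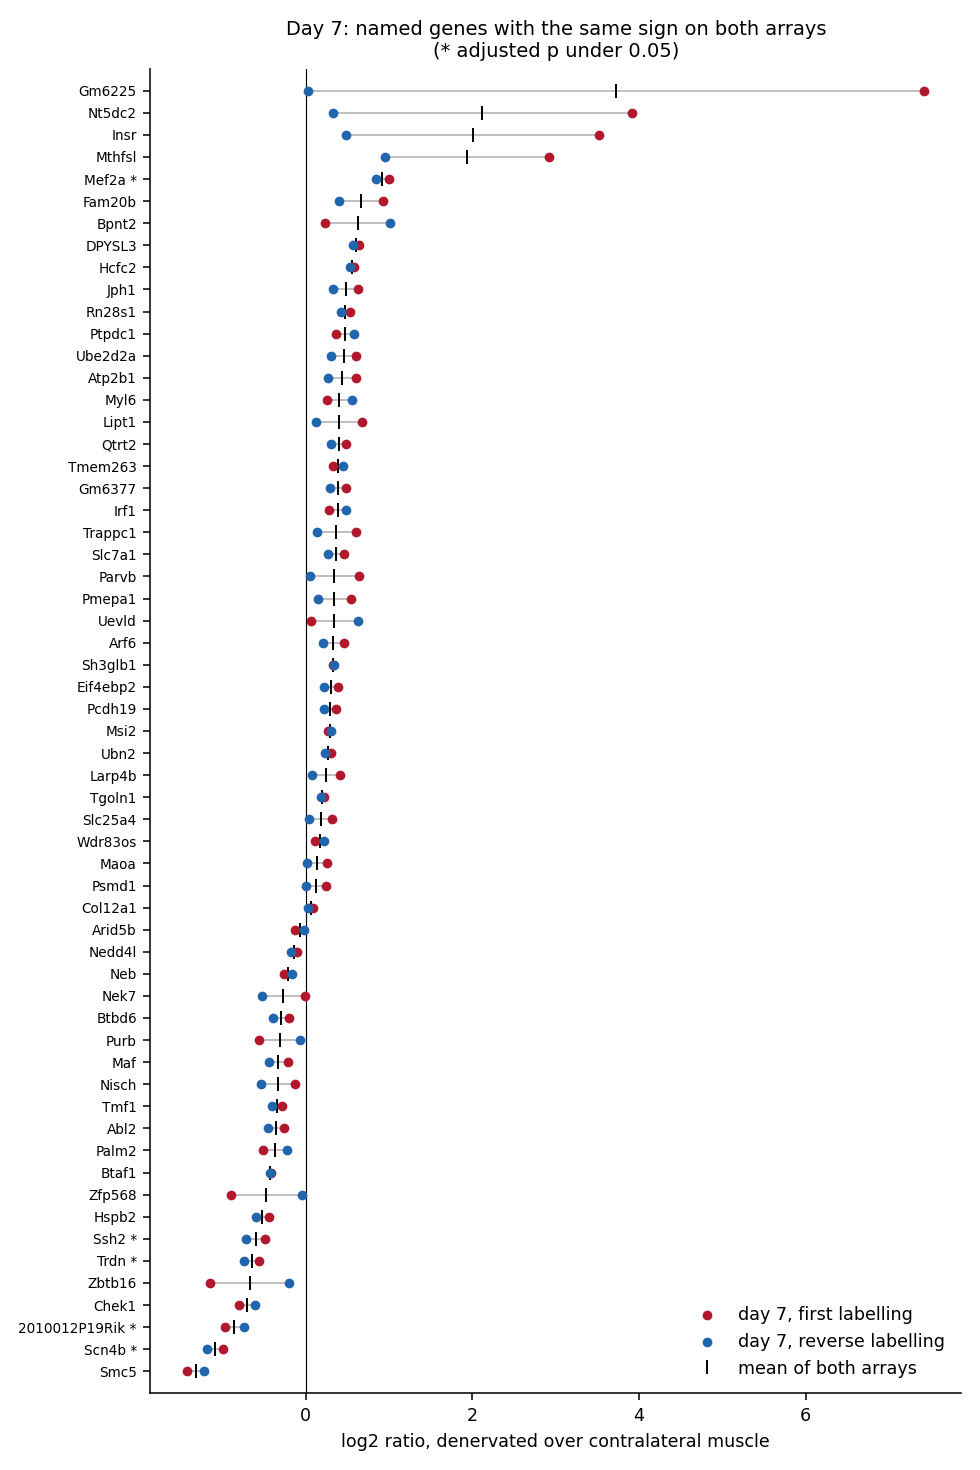
Log2 ratio of denervated over contralateral muscle (x axis) at day 7 for each of the 59 named genes with the same sign on both arrays (y axis, sorted by mean). Red points are the first labelling, blue points the reverse labelling, and black ticks their mean. The 4 highest genes have red points between 2.92 and 7.42 with blue points below 1, while the points of Mef2a, DPYSL3, Hcfc2, Scn4b and Smc5 lie close together.

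In a limma fit over all 10 arrays with a coefficient per time point, 5 of the 89 named genes differed between the muscles at day 7 at an adjusted p under 0.05. Mef2a was higher, and Scn4b, Trdn, Ssh2 and 2010012P19Rik were lower. Of all features 11.6% passed, 4.43% higher and 7.17% lower, so the share among named genes (5.62%) was below that of the array. An unadjusted p under 0.05 was reached by 23 named genes and by 29.9% of all features. At time 0 no feature passed in this fit, although 14.3% had an unadjusted p under 0.05.

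Scn4b is the beta-4 accessory subunit of the voltage-gated sodium channels that carry the fibre's action potential. It read -0.99 on the first and -1.18 on the reverse labelling of day 7, against -0.06 and -0.08 at time 0. Both day 7 arrays lay below both time 0 arrays. It fell by 1.09 on the log2 scale (SD 0.13, n = 2 arrays, 95% interval -1.33 to -0.85, limma adjusted p = 0.00294), which is 0.470 times the contralateral level. Its 2 probes, from 1 sequence record, gave -0.98 and -1.20. The first probe read -0.66 and -1.31 on the 2 arrays and the second -1.33 and -1.06, so the array with the lower value differed between the probes. All 16 spots were below 0, from -1.80 to -0.62. Fitted singly among 2304 probes, both passed (limma adjusted p = 0.0212 and 0.00611). On the first labelling of time 0 the probes disagreed, with medians of 0.31 and -0.42. Tested singly against time 0, the second probe passed (limma adjusted p = 0.0361) and the first did not (0.0550). Of the 5 named genes, Scn4b alone kept the call without either day 7 array.

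The triad, where a transverse tubule meets the sarcoplasmic reticulum, was represented by Trdn and Jph1. Trdn encodes triadin, which links calsequestrin to the calcium release channel. It read -0.56 and -0.74 at day 7, against 0.04 and 0.13 at time 0. The averaged ratio was -0.65 ± 0.13 (SD, n = 2 arrays, 95% interval -0.92 to -0.38, limma adjusted p = 0.0160). It rests on 3 probes from 2 sequence records that did not read alike. The first probe of one record had medians of -0.94 and -1.19 and the second -0.93 and -0.84, and all their spots were below 0. The probe of the other record had medians of 0.18 and -0.20. Fitted singly, the first 2 passed, at -1.06 and -0.88 (limma adjusted p = 0.00955 and 0.0252), and the third stood at -0.01 (adjusted p = 0.998). Whether the records differ from each other was not tested. At time 0 the first-labelling spots of the second probe spanned 2.98. The averaged call was lost when spots were averaged (adjusted p = 0.0581), when recurring values were dropped (adjusted p = 0.0600) and without either day 7 array (adjusted p = 0.0749 and 0.107). Jph1, junctophilin 1, ties the tubule membrane to the reticulum. It read 0.63 and 0.33 at day 7, against -0.36 and 0.04 at time 0, with all 8 day 7 spots above 0. Its ratio was 0.48 ± 0.21 (95% interval 0.11 to 0.85) and did not pass (limma adjusted p = 0.0932).

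Mef2a, a transcription factor of muscle differentiation, read 0.99 and 0.85 at day 7, against 0.31 and -0.26 at time 0. Its 4 spots ran from 0.75 to 1.26 on the first and from 0.73 to 0.98 on the reverse labelling. Both day 7 arrays were above both time 0 arrays, and the 2 time 0 arrays had opposite signs. The ratio was 0.92 ± 0.10 (SD, n = 2 arrays, 95% interval 0.42 to 1.42, limma adjusted p = 0.0368), or 1.89 times the contralateral level. The call was lost with print blocks centred (0.61, adjusted p = 0.0693), when spots were averaged (0.93, adjusted p = 0.178) and without either array of day 1, day 3 or day 7.

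Ssh2, slingshot 2, is a phosphatase that activates the actin-severing cofilins. It read -0.49 and -0.72 at day 7, against 0.23 and 0.24 at time 0, and its 8 day 7 spots ran from -0.79 to -0.32. All 8 spots at time 0 were above 0. The ratio was -0.60 ± 0.16 (SD, n = 2 arrays, 95% interval -0.87 to -0.33, limma adjusted p = 0.0195). The call was lost without either day 7 array (adjusted p = 0.0709 and 0.121) and without either day 1 array (0.0512). The fifth gene, 2010012P19Rik, read -0.97 and -0.75 at day 7, against 0.54 and 0.09 at time 0. Its day 7 spots ran from -1.15 to -0.70. The ratio was -0.86 ± 0.16 (95% interval -1.24 to -0.48, limma adjusted p = 0.0189), or 0.551 times the contralateral level. The call was lost without either day 7 array (adjusted p = 0.163 and 0.0703). The RefSeq gene table lists this name as a synonym of Tnfsf13os, a long non-coding RNA, under another gene identifier.

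**Figure D2:**
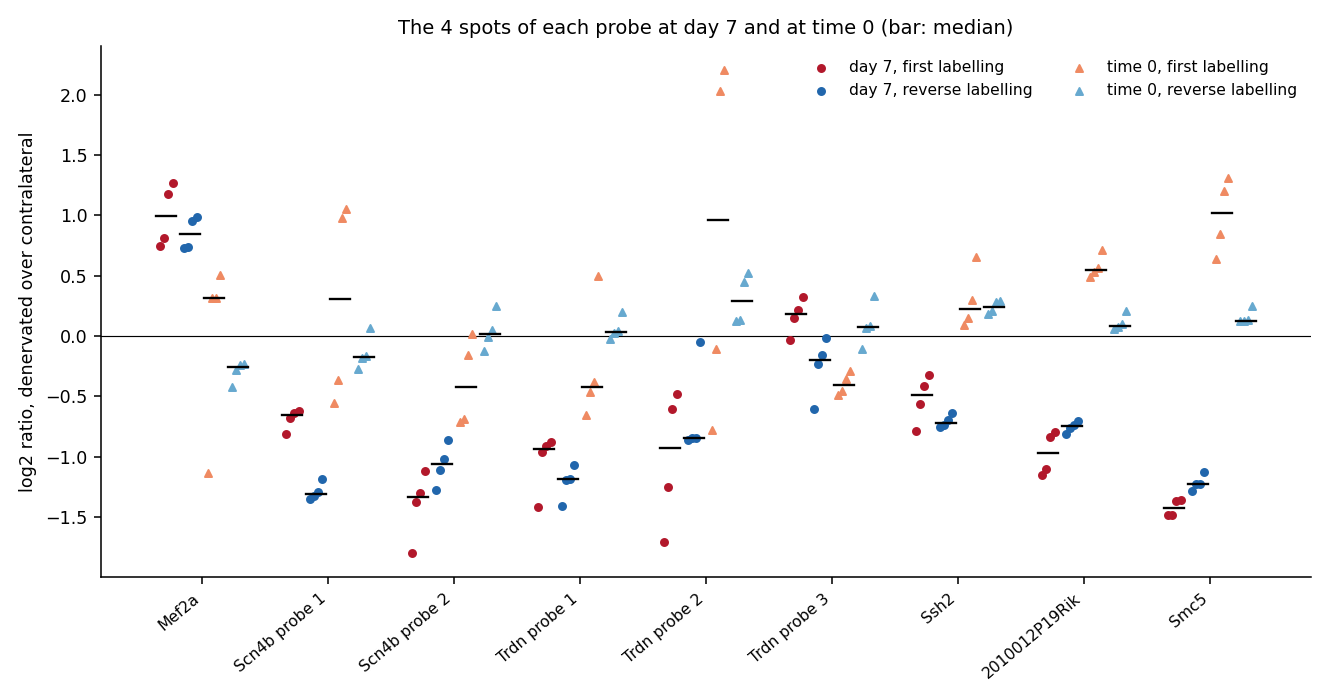
The 4 spots of each probe (points) and their median (bars) as log2 ratios of denervated over contralateral muscle (y axis), for the 5 genes past the threshold and Smc5 (x axis). Circles are the 2 day 7 arrays and triangles the 2 time 0 arrays. The day 7 circles of Scn4b, Ssh2, 2010012P19Rik and Smc5 all lie below 0 and those of Mef2a above 0, while the third Trdn probe straddles 0.

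Promoter sequence was at hand for 3 of the 5 genes and is shown because Mef2a is itself a MEF2 family member and because E-boxes are the sites of the myogenic factors. Each stretch runs from 250 bases before to 50 after a start site listed in RefSeq (GRCm38.p6), read 5′ to 3′ on the gene's strand. For Mef2a and Ssh2 the window lies inside the listed gene, which spans chr7:67231163-67376456 and chr11:77216157-77460220. Capitals mark matches to the E-box (CANNTG, which reads alike on both strands) or to the MEF2 motif, and no matches of the 2 motifs overlapped.
Mef2a, chr7:67372809-67373108, minus strand: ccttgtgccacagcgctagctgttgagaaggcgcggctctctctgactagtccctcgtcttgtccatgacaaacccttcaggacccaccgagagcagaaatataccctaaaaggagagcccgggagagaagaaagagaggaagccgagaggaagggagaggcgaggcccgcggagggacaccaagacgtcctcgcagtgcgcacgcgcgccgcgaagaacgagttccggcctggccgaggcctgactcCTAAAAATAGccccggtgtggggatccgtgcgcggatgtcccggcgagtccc
Scn4b, chr9:45138374-45138673, plus strand: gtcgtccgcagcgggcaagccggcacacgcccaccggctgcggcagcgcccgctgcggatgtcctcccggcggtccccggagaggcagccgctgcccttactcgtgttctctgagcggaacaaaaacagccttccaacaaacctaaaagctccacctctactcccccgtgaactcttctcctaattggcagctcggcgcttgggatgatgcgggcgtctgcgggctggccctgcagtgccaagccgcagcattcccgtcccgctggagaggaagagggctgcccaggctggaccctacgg
Ssh2, chr11:77216175-77216474, plus strand: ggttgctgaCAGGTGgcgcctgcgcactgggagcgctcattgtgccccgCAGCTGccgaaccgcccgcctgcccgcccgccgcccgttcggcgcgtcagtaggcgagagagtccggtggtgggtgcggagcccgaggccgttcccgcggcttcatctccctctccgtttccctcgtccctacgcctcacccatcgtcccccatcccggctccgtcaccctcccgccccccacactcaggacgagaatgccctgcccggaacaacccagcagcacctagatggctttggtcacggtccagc
The Mef2a window held 1 match to the MEF2 motif, which begins 2 bases before the start site of that window, and 0 E-boxes. The Scn4b window held neither motif. The Ssh2 window held 2 E-boxes, and the window of its second listed start held 1. Over all 32851 promoter windows of this length, 72.3% held an E-box and 3.19% a MEF2 motif. A match is a description of these letters and not a binding site.

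Of 19 gene lists made for denervated muscle, 11 had a measured gene. The lists were chosen with earlier results of these data known. Their counts were not tested against all features, of which 11.6% passed, 4.43% higher and 7.17% lower. Of the 7 transcription regulators measured, 1 rose (Mef2a) and 0 fell, with a median of -0.12. Of the 5 costamere and actin genes 1 fell (Ssh2), of the 3 genes on the sodium channel and membrane list 1 fell (Scn4b), and of the 2 triad and calcium genes 1 fell (Trdn). The other 2 measured genes of the sodium channel and membrane list were Insr, a hormone receptor, and Pcdh19, an adhesion molecule, neither a channel subunit. Mef2a was the only measured gene of the denervation response list. None passed among the 5 metabolic genes measured, the 2 of DNA repair, the 2 of RNA binding, the 2 of Golgi traffic, nor Neb and Psmd1, the single genes of the sarcomere and proteasome lists.

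Several genes had concordant arrays without passing the test. Smc5, a subunit of the SMC5/6 complex of genome maintenance, had the lowest mean of the named genes at -1.32 ± 0.14 (SD, n = 2 arrays). It read -1.42 and -1.22 at day 7, against 1.02 and 0.13 at time 0. Its spots were tight, from -1.49 to -1.36 on the first and from -1.28 to -1.13 on the reverse labelling. The limma interval of -2.65 to 0.00 (adjusted p = 0.167) takes its spread from all time points, and the day 14 arrays read -1.59 and 0.99. Without either day 14 array the adjusted p was 0.0226. Chek1, a DNA damage checkpoint kinase, read -0.80 and -0.61, and the mitotic kinase Nek7 read -0.01 and -0.53. All 3 measured genes of genome maintenance and the cell cycle were below 0 on both arrays, and none passed. The first-labelling spots of Nek7 ran from -1.98 to 0.47. The role groups, here and below, were formed with earlier results known. Their counts were not tested against all features, of which 39.1% were above and 32.5% below 0 on both arrays.

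Among the 10 sarcomere and cytoskeleton genes, 3 were higher and 5 lower on both arrays, and Ssh2 alone passed. Neb, the thin-filament protein nebulin, read -0.27 and -0.17 at day 7, against 0.67 and 0.57 at time 0. Nisch, which binds integrin alpha-5, read -0.13 and -0.54. Abl2, a tyrosine kinase that bundles actin, stood at -0.36 ± 0.14, and Palm2, a paralemmin, at -0.37 ± 0.21. On the other side, Myl6, a non-sarcomeric myosin light chain, stood at 0.40 ± 0.21. Parvb, an integrin-linked actin binder, read 0.63 and 0.05. DPYSL3, a cytoskeletal protein of growing axons, read 0.64 and 0.56, against -0.53 and -0.20 at time 0. Its 8 day 7 spots lay between 0.52 and 0.69. At 0.60 ± 0.06 it did not pass (limma adjusted p = 0.0709), and with print blocks centred it did (0.74, adjusted p = 0.0406).

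Of the 13 transcription and chromatin genes, 4 were higher and 6 lower on both arrays, and Mef2a passed. Hcfc2, a host cell factor of chromatin complexes, read 0.57 and 0.53, against -0.65 and -0.17 at time 0, with 8 spots from 0.37 to 0.72 (limma adjusted p = 0.0991). Irf1, an interferon-response factor, stood at 0.38 ± 0.14, and Ubn2, a subunit of a histone chaperone, at 0.26 ± 0.05. Zbtb16, a zinc-finger factor, read -1.15 and -0.20, and Zfp568, a KRAB zinc-finger protein, read -0.90 and -0.05. Btaf1, the ATPase that removes TATA-binding protein from DNA, read -0.42 and -0.43. Maf stood at -0.33 ± 0.16. Arid5b stood at -0.07 ± 0.07, and its mean turned above 0 with the mean of the 4 spots. Purb, which represses muscle contractile genes, stood at -0.32 ± 0.35, with -0.48 and -0.16 from its 2 probes.

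Of the 11 genes of RNA handling and translation, 5 were higher on both arrays, none was lower and none passed. Rn28s1, a ribosomal RNA gene, stood at 0.47 ± 0.07, against 1.48 and 0.09 on the time 0 arrays. Qtrt2, a subunit of the enzyme that puts queuosine into transfer RNA, stood at 0.40 ± 0.12. Eif4ebp2, a brake on cap-dependent translation, stood at 0.30 ± 0.12 and Msi2, an RNA-binding protein, at 0.29 ± 0.02. With print blocks centred these last 2 turned to -0.01 and -0.04, the only ones of the 59 means to change sign in that setting. Larp4b, which binds poly(A) messages, stood at 0.24 ± 0.24.

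Of the 9 proteostasis genes, 3 were higher and 3 lower on both arrays, and none passed. Ube2d2a, a ubiquitin-conjugating enzyme, read 0.60 and 0.30. Uevld, a ubiquitin-conjugating variant, read 0.06 and 0.62, and Psmd1, a proteasome subunit, stood at 0.12 ± 0.17. Hspb2, a small heat shock protein of muscle, read -0.45 and -0.60, against 0.75 and 0.06 at time 0 (limma adjusted p = 0.104). It passed when spots were averaged (-0.70, adjusted p = 0.0299) and without either time 0 array (adjusted p = 0.0422). Btbd6, a cullin adaptor, stood at -0.30 ± 0.14, and Nedd4l, a ubiquitin ligase of membrane channels, at -0.14 ± 0.04.

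The 8 Golgi and endosome genes gave 5 higher and 1 lower on both arrays, with none passing. Bpnt2, a Golgi phosphatase, read 0.23 and 1.01, and Sh3glb1, a membrane-curving endophilin, read 0.32 and 0.33. Arf6, a GTPase of endocytosis, stood at 0.33 ± 0.17, Trappc1, a vesicle tether, at 0.37 ± 0.33 and Tgoln1, a trans-Golgi protein, at 0.20 ± 0.02. Tmf1, a Golgi coiled-coil protein, was the lower one at -0.35 ± 0.08. All 3 matrix and adhesion genes were higher, with Fam20b, a kinase of proteoglycan linkers, at 0.66 ± 0.37, the protocadherin Pcdh19 at 0.29 ± 0.11 and the collagen Col12a1 at 0.06 ± 0.05. Of transport genes, the plasma membrane calcium pump Atp2b1 stood at 0.43 ± 0.24 and the cationic amino acid transporter Slc7a1 at 0.36 ± 0.14. Of the 9 mitochondrial and metabolic genes, 5 were higher and none lower on both arrays, against 39.1% higher and 32.5% lower over all features. The 5 include Nt5dc2 and Mthfsl, whose divided first-labelling spots are described below. Slc25a4 and Maoa read only 0.04 and 0.01 on the reverse labelling. Lipt1, a lipoyltransferase, stood at 0.40 ± 0.39, the mitochondrial ADP/ATP carrier Slc25a4 at 0.18 ± 0.19 and the monoamine oxidase Maoa at 0.13 ± 0.17. The signalling genes Ptpdc1, a phosphatase, and Pmepa1, an inhibitor of TGF-beta signalling, stood at 0.47 ± 0.15 and 0.34 ± 0.28. Tmem263 (0.39 ± 0.09), Gm6377 (0.39 ± 0.13) and Wdr83os (0.17 ± 0.07) were also higher. None of the genes given so far in this paragraph passed at day 7. Scn4b, grouped with the transport genes, and 2010012P19Rik, grouped with Tmem263, Gm6377 and Wdr83os, were lower and passed, as described above.

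The 4 highest means came from the first labelling. Gm6225 read 7.42 on the first and 0.02 on the reverse labelling, with its 4 first-labelling spots between 7.05 and 7.52. Nt5dc2 read 3.91 and 0.32, from first-labelling spots at 0.14, 0.44, 7.39 and 7.82. Insr, the insulin receptor, read 3.52 and 0.49, from spots at -0.34, 0.04, 7.01 and 8.19. Mthfsl read 2.92 and 0.94, from spots at -0.50, 0.19, 5.65 and 6.77. In the last 3 genes, a pair of spots near 0 and a pair above 5 gave a median that no spot had. Eya4, a coactivator of muscle homeobox factors, showed the same division on the first labelling, at -0.08, 0.38, 7.43 and 7.51, and stood at -0.33 on the reverse labelling, so its signs were opposite. None of these 5 genes passed (limma adjusted p from 0.0871 to 0.221).

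**Figure D3:**
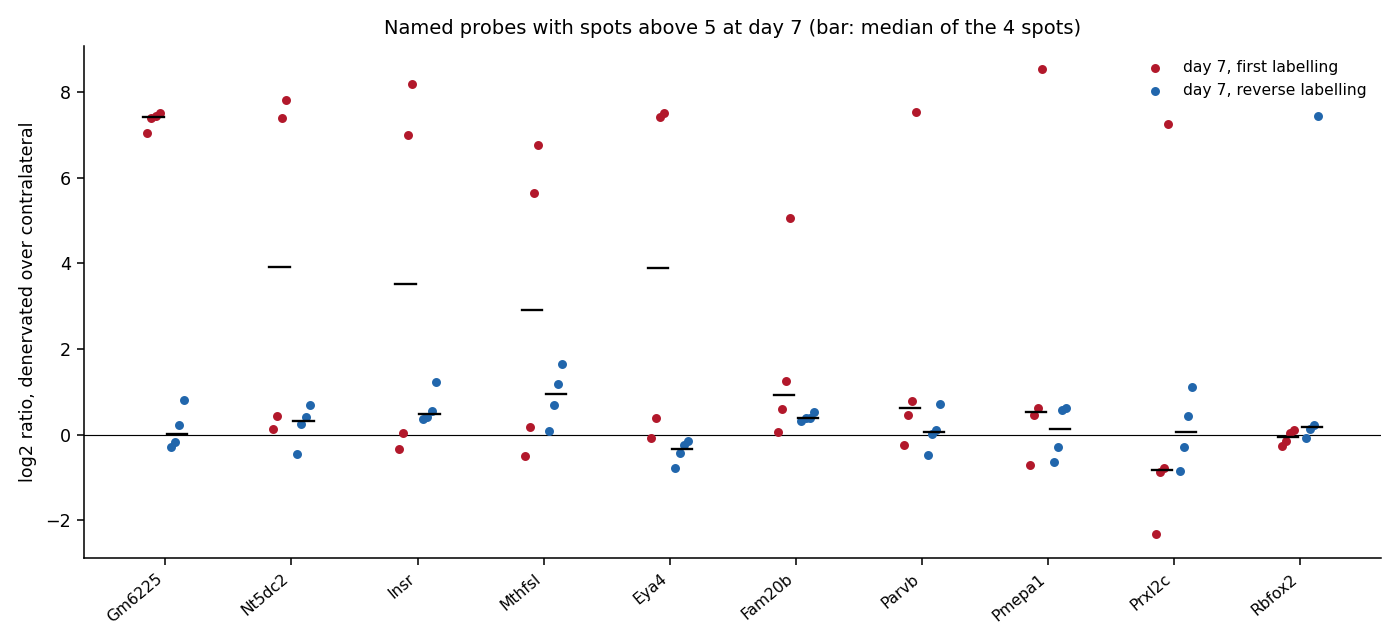
The 4 spots (points) and their median (bars) as log2 ratios of denervated over contralateral muscle (y axis) for the 10 named probes with a spot above 5 on a day 7 array (x axis). Red is the first labelling and blue the reverse labelling. Gm6225 alone has all 4 spots of an array above 5, and Nt5dc2, Insr, Mthfsl and Eya4 divide into 2 spots near 0 and 2 above 5.

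Such spots were not particular to the named genes. On the first labelling of day 7, 448 of 9216 spots were above 5, in 289 probes, of which 170 had 1 such spot, 85 had 2, 28 had 3 and 6 had all 4. On the reverse labelling 242 spots were above 5, in 144 probes, of which 10 had all 4, and no probe had all 4 above 5 on both arrays. The time 0 arrays had 1 and 259 such spots. Among the 93 probes with 1 symbol, 9 had a spot above 5 on the first and 1 (Rbfox2) on the reverse labelling. Fam20b, Parvb, Pmepa1 and Prxl2c had 1 such spot each. The median averages the middle 2 of the 4 spots, so it limits the weight of such a spot without leaving it out. For Fam20b, first-labelling spots at 0.07, 0.59, 1.25 and 5.07 gave a median of 0.92. By size, 8.57% of all features had arrays of equal sign and a mean of 1 or more in size at day 7 (5.09% higher and 3.48% lower), against 2.91% at time 0 (2.61% higher and 0.304% lower). Of the 6 named genes of that size, Scn4b and Smc5 reached 1 with each spot of their probes on the same side of 0, and the other 4 are Gm6225, Nt5dc2, Insr and Mthfsl.

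The 8 day 7 spots of a probe were also compared by sign. Of the 93 probes with 1 symbol, 19 had all 8 spots above 0 and 12 had all 8 below 0, which is 20.4% and 12.9%, against 18.9% and 17.2% of all 2304 probes. At time 0 the shares over all probes were 8.20% above and 13.3% below. The 12 lower probes were those of 2010012P19Rik, Abl2, Chek1, Hspb2, Smc5, Ssh2, Zbtb16, both of Scn4b, 2 of the 3 of Trdn and 1 of the 2 of Purb. The 19 higher probes were those of Arf6, Atp2b1, DPYSL3, Eif4ebp2, Fam20b, Hcfc2, Irf1, Jph1, Larp4b, Mef2a, Msi2, Myl6, Pcdh19, Qtrt2, Rn28s1, Sh3glb1, Slc7a1, Tmem263 and Ube2d2a.

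The signs at day 7 were set beside those at time 0. Of the 38 higher genes, 21 (55.3%) were below 0 on both time 0 arrays and 8 (21.1%) were above. Over all features that were higher on both day 7 arrays, the shares were 49.2% and 19.1%, near those of the named genes. Of the 21 lower genes, 3 (14.3%) were below 0 on both time 0 arrays and 9 (42.9%) were above. Over all features that were lower on both day 7 arrays, the shares were 21.3% and 42.5%. Over all features of the array, 29.6% were above and 33.2% below 0 on both time 0 arrays. Among the 19 probes with all 8 day 7 spots above 0, 11 had all 8 time 0 spots below 0 (57.9%), and over all such probes the share was 41.3%, against 13.3% for all probes of the array. Among the 12 probes with all 8 day 7 spots below 0, 3 had all 8 time 0 spots above 0 (25%), as did 25.2% of all such probes. What sets the time 0 values apart from 0 was not tested.

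**Figure D4:**
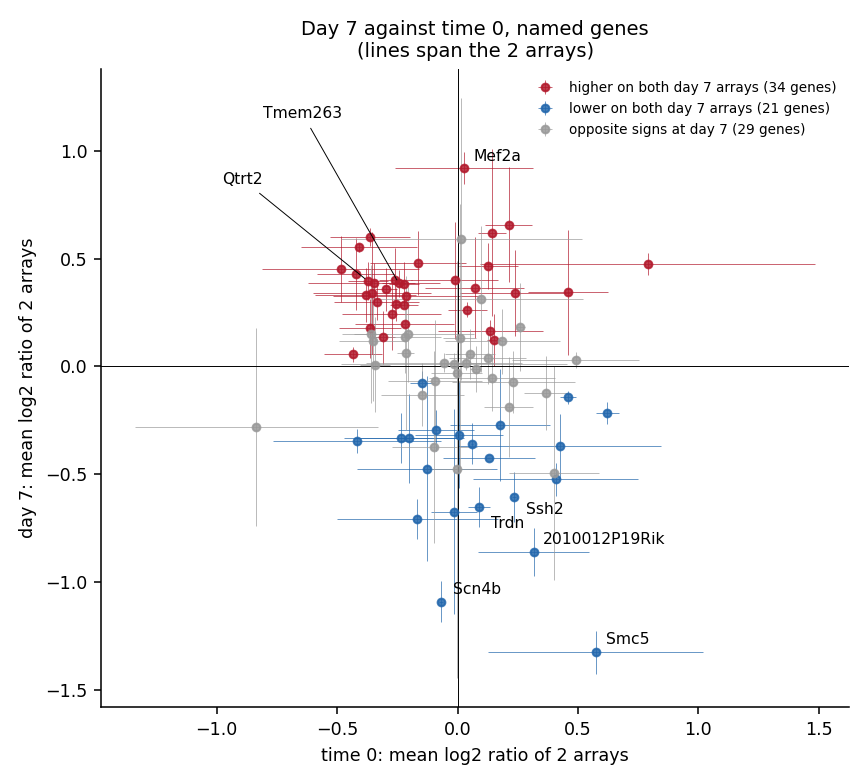
Mean log2 ratio of 2 arrays at day 7 (y axis) against that at time 0 (x axis) for named genes, with lines spanning the 2 arrays. Red genes were higher on both day 7 arrays (34 genes), blue were lower (21) and grey had opposite signs (29), and 5 genes with a day 7 mean of 1.5 or more are not drawn. Of the 38 higher genes 21 were below 0 on both time 0 arrays, and Smc5, Scn4b and 2010012P19Rik have the lowest day 7 means.

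The difference between day 7 and time 0 was tested as a contrast of the same fit, in which 11% of all features passed, 5.13% higher and 5.83% lower. Of the 89 named genes 6 passed, and 28 had an unadjusted p under 0.05, against 31.2% of all features. Scn4b (-1.02), 2010012P19Rik (-1.17), Ssh2 (-0.84) and Trdn (-0.74) were lower at day 7 (limma adjusted p = 0.0139, 0.0291, 0.0290 and 0.0395). The Trdn value averages 3 probes that did not read alike. Tested singly against time 0, they gave -0.87, -1.51 and 0.16 (limma adjusted p = 0.0507, 0.0224 and 0.772), so only the second passed. Qtrt2 and Tmem263 were higher. Qtrt2 read 0.48 and 0.31 at day 7, against -0.46 and -0.29 at time 0, a difference of 0.77 (adjusted p = 0.0390). Tmem263 read 0.32 and 0.45 at day 7, against -0.18 and -0.31 at time 0, a difference of 0.63 (adjusted p = 0.0467). For both genes the time 0 arrays were below 0, so part of each difference lies in the time 0 values. The same holds for 3 of the lower genes, whose time 0 arrays were above 0. These were Ssh2 (0.23 and 0.24), 2010012P19Rik (0.54 and 0.09) and Trdn (0.04 and 0.13), while Scn4b read -0.06 and -0.08. Mef2a differed by 0.89 and did not pass (adjusted p = 0.0996). With a replicate block for orientation, Qtrt2 (limma adjusted p = 0.0531), Tmem263 (0.0627) and Trdn (0.0534) no longer passed, and 3 named genes did. Without the first labelling of time 0, 0 named genes and 19 features passed this contrast, against 6 and 252. Scn4b was the 1 named gene that passed without either array of day 1 or without the first array of day 7. Without either array of day 3, 2 named genes passed, Scn4b and 2010012P19Rik.

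Day 7 was also set against its neighbours in time. Against day 3, 0.565% of all features passed (0.522% higher and 0.0435% lower) and no named gene did, with 6 of 89 at an unadjusted p under 0.05, as were 11.6% of all features. The lowest adjusted p belonged to 2010012P19Rik, at -0.86 on day 7 and -0.05 on day 3 (difference -0.80, 95% interval -1.34 to -0.27, limma adjusted p = 0.283). Trdn stood at -0.65 on day 7 and -0.11 on day 3 (difference -0.54, interval -0.92 to -0.15, adjusted p = 0.321). Against day 14, 0.783% of all features passed (0.087% higher and 0.696% lower) and again no named gene, with 29 of 89 at an unadjusted p under 0.05, as were 24.5% of all features. Tmem263 read 0.32 and 0.45 at day 7, against -0.42 and -0.44 at day 14 (difference 0.82, interval 0.47 to 1.17, adjusted p = 0.0702). Neb read -0.27 and -0.17 at day 7, against 1.02 and 1.47 at day 14 (difference -1.47, interval -2.22 to -0.72, adjusted p = 0.0733). Scn4b stood at -1.09 on day 7, -1.18 on day 3 and -1.30 on day 14, and neither difference passed. With spots held within 2 log2 units, 20 named genes passed against day 14, as did 278 of the 1436 features in that setting. Leaving out an array of day 14, which leaves 1 array there, also changed which genes passed.

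The 30 genes with opposite signs included members of most groups. Eya4 had the largest mean among them. Among those on the gene lists, Sbno1, a transcription regulator, read -0.74 and 0.18. Gclm, a subunit of the enzyme of glutathione synthesis, read 0.47 and -0.17, and Bckdk, the kinase of branched-chain keto acid breakdown, read -0.22 and 0.07. Ddx42, an RNA helicase, read -0.03 and 0.27, and Zfp948, a zinc-finger protein, -0.29 and 0.05. Dusp11 (-1.45 and 0.49) and Gm773 (-0.06 and 1.25) are named for their gap between arrays, after their values were seen. Across all 2300 features the 2 day 7 arrays had a Pearson correlation of 0.18 and a Spearman correlation of 0.50, against 0.13 and 0.32 for the time 0 arrays. Features share arrays and print blocks, and these values are descriptions.

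Among unnamed probes past the threshold with the same sign on both arrays, spot_8162 and spot_8333 had the highest means. The first read 6.70 and 7.28, and the second 6.71 and 6.83. On the first labelling of time 0 they read 0.43 and 0.24. On the reverse labelling of time 0 both stood at the value that recurs at 508 spots of that array, and several of their day 1 and day 3 values were recurring values as well, so these are not taken as measured ratios and the fit's spread for these probes includes them. The lowest were spot_732, at -3.27 and -2.45, and spot_2940, at -2.15 and -2.10. Their limma adjusted p values were 0.0142, 0.00417, 0.00417 and 0.00130.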

How the data were processed

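Spotted arrays measured 10 samples from 5 time points, each with 2 arrays labelled in opposite orientation, from 8 µg of total RNA per the labels. The deposited values are log2 ratios, and per the labels' protocols the images were quantified with QuantArray and normalised with SNOMAD (global and lowess). How background was corrected, which spots were filtered and which versions were run is not given here. Depth does not apply, and the number of arrays limits the precision.

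The 9216 spots form 16 print blocks in which each probe recurs 4 times. This was read from the annotated spots and taken to hold for unnamed ones. The median of 4 spots was used, and probes of a gene were averaged, giving 2300 features from 2304 probes. Of these probes 93 had 1 symbol, 4 several and 2207 none. For 9 genes the identifier was not in the RefSeq table and the annotation's name was kept. On each array 1 value recurs, at 425 spots of the first and 745 of the reverse day 7 array, and such spots were left out in an alternative.

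limma 3.58.1 (R 4.3.3) fitted all 10 arrays with a coefficient per time point (5 residual degrees of freedom), with two-sided tests, Benjamini-Hochberg adjustment over all features and a threshold of 0.05, and was tested on simulated data. Values were given for genes past the threshold, for the 10 highest and 10 lowest means and for opposite-sign genes on a list or with a mean of at least 1, of which 1 is not reported here. The other genes are shown by role, and up to 4 unnamed probes were added. The members, gene lists and role groups were chosen with earlier results of these data known. Alternatives changed the spot summary, the centring, the spot filter, the arrays fitted and the moderation.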

Additional observations from a re-analysis of the deposited data

Results flagged for a closer look

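For 6 named genes the day 7 ratio differed from the time 0 ratio in a test of the difference itself (limma adjusted p from 0.0139 to 0.0467, with 2 arrays per time point). The difference was -1.17 for 2010012P19Rik, -1.02 for Scn4b, -0.84 for Ssh2 and -0.74 for Trdn, and for each of these both day 7 arrays were below both time 0 arrays. It was 0.77 for Qtrt2 and 0.63 for Tmem263, and for both genes the 2 day 7 arrays were above the 2 time 0 arrays. Scn4b averaged near 0 at time 0 (-0.06 and -0.08), although its probes read 0.31 and -0.42 on the first labelling there. Tested singly against time 0, only the second of these probes passed. At time 0 Ssh2 read 0.23 and 0.24, and Qtrt2 read -0.46 and -0.29. With 1 array left out, which leaves 1 array at that time point, some of the 6 genes always lost the call. All of them lost it without the first time 0 array. In some of these fits, named genes from outside the 6 gained a call. No named gene passed with the time 0 and day 7 arrays alone. With a replicate block for orientation, Qtrt2 (limma adjusted p = 0.0531), Tmem263 (0.0627) and Trdn (0.0534) did not pass. No group had the 4 arrays that a test for a single distant array needs.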

How the results depend on the processing

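Over 22 named genes and 502 alternative values, 404 kept their direction and side of the threshold, 86 lost the call, 12 gained one and 0 turned round. These counts mix called genes with genes that had no call, for which staying without one counted as kept. Alternatives that changed only the other arrays or the moderation left the day 7 mean as it was, so its direction was fixed there. The day 7 count of 267 features was 5 with the time 0 and day 7 arrays alone, where no named gene passed and Scn4b had an adjusted p of 0.0916. It was 85 and 168 without the first and the reverse day 7 array, and 170 without either day 1 array. The others, including the orientation as a replicate block (288), without a time 0 array (296), without a day 3 array (203) and without a day 14 array (267), ran from 203 to 344. With arrays centred on their medians, 78 of 261 were higher, against 102 of 267. The 252 features that differed between day 7 and time 0 became 1 with these arrays alone and 386 with spots within 2 log2 units. They became 64 and 134 without a day 7 array, 19 and 248 without a time 0 array, 68 without a day 1 and 114 without a day 3 array. With the replicate block they were 177, and Qtrt2 (adjusted p = 0.0531), Tmem263 (0.0627) and Trdn (0.0534) lost the call. Scn4b lost it without the first time 0 array (0.0707). The 13 that differed from day 3 became 20 with print blocks centred, 12 and 53 without a day 7 array, and 9 and 13 without a day 3 array. The 18 that differed from day 14 became 31 without repeated values, 278 with spots within 2 log2 units, 8 with the replicate block, 10 with robust moderation, 10 and 56 without a day 7 array, and 191 and 96 without a day 14 array. The 197 features of size 1 or more became 100 with spots within 2 log2 units and 216 and 322 from a single day 7 array. The causes were not tested. Arrays of the same orientation deviated together with correlations from 0.03 to 0.42 over 10 pairs of time points, 9 of them over 0.1, so a shared effect of orientation may be present. The labels give the orientation but no shared extract or day, and the fit without the block was kept as fixed in the design.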
